A study of Mus musculus with 6 samples.

Results

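Expression of 10 genes that mark lung macrophages was compared between mice lacking the start of Zpbp2 (KO) and control mice (WT). Of these genes, 6 are widely used to recognise alveolar macrophages (Chil3, Ear2, Marco, Mrc1, Siglec1 and Atp6v0d2), 3 encode the chains of complement component C1q (C1qa, C1qb and C1qc), and Adgre1 encodes F4/80, a surface protein of most mouse tissue macrophages. They were chosen by name from the 41388 genes of the count table. For 9 of them the symbol matched, and Adgre1 was matched by its gene identifier (ENSMUSG00000004730) because the table lists it under the older symbol Emr1.

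The libraries were made from RNA of whole lungs, taken at ZT7, or 7 h into the light phase. WT mice were C57BL/6J animals bred alongside the mutant line. KO mice belonged to the B6.129S7-Zpbp2tmZuk/Mmjax line, in which exons 1 to 3 of Zpbp2 are deleted in every cell on a C57BL/6J background. Each genotype had 3 libraries, named WT1 to WT3 for controls and KO1 to KO3 for mutants. The methods describe a separate mouse for each, which the likeness of KO2 and KO3, given below, leaves in doubt for that pair. The methods describe the mice sampled over a full day, at times other than ZT7, as adult and of both sexes. The sex and age of the ZT7 animals were not given in the sources used here. Because whole lung was sequenced, fewer macrophages and less RNA per macrophage cannot be told apart.

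Alveolar macrophages live on the surface of the air spaces, where they clear surfactant, inhaled particles and dying cells, and they depend on the cytokine GM-CSF and on TGF-beta. Interstitial macrophages lie in the tissue around airways and vessels, and are a main source of C1q in the lung. C1q is built from A, B and C chains, binds antibody complexes and dying cells, and starts the classical complement pathway.

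The libraries held 59134950 (KO3) to 71354388 (WT1) counts. Levels are given as CPM, the counts in 1e6 of a library after its size was scaled with edgeR's TMM factor. Zpbp2 itself was at 0.273, 0.214 and 0.117 CPM in the WT libraries and at 0.0159, 0 and 0 CPM in the KO libraries. The difference between KO2 and KO3 was little above counting noise, with a ratio of squared deviation to counting variance of 1.71 for genes with 30 to 200 counts and 3.30 for genes with 20000 or more, whereas that ratio went from 2.01 to 51.2 for WT1 and WT2 and from 4.17 to 159 for KO1 and KO2. The libraries KO2 and KO3 thus entered as a joint sample, which leaves n = 3 for WT and n = 2 for KO in every mean ± SD and in the main test. Other tissues also moved between libraries. The summed level of 11 squamous epithelium genes reached 4564 CPM in WT3 and 8757 CPM in KO1, while the other 4 libraries had 7.05 to 8.82 CPM. The sum of 5 erythroid genes was 18978 and 19712 CPM in KO2 and KO3 against 2396 to 5507 CPM elsewhere. Adipocyte genes summed to 836 to 1302 CPM in WT and 178 to 367 CPM in KO, with all 9 lower in KO by estimate and none near 0. Of these 9, Plin1 (log2 fold change -3.22, adjusted p = 0.0496), Lipe (-0.91, adjusted p = 0.0450) and Pck1 (-3.87, adjusted p = 0.0446) were called lower by edgeR. Cardiomyocyte genes summed to 2400 to 6848 CPM in WT and 1235 to 1415 CPM in KO. The part of these differences in the results that follow was not tested.

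All 10 macrophage genes were well above the filter on low counts, the lowest count being 407 for Siglec1 in KO1. Genes were called changed where the adjusted p was no more than 0.05 in edgeR's quasi-likelihood test, with Benjamini-Hochberg adjustment over the 18660 genes tested. Siglec1 and Mrc1 fell in KO lungs, and none of the 10 rose. That is 2 of 10, beside 426 of all tested genes (2.28%), of which 257 were higher in KO (1.38%) and 169 lower (0.906%). With library size alone as the scaling, 117 genes were higher and 189 lower, and Siglec1 and Mrc1 were still called. With an unadjusted p up to 0.05, Ear2, Mrc1 and Siglec1 passed, beside 27.3% of all tested genes. By estimate 9 of the 10 genes were lower in KO, all except Marco, against 47.8% of all tested genes. Every KO library lay below every WT library for Ear2, Mrc1, Siglec1 and Adgre1, 4 of 10 against 20.8% of tested genes, and every KO library lay above every WT library for 0 of 10 against 20.0%. With KO2 and KO3 entered as separate samples the same test called Ear2, Mrc1 and Siglec1, 3 of 10, beside 3402 of 18014 genes (18.9%), of which 9.07% of genes were lower and 9.81% higher. In that fit the same 9 of 10 had lower estimates, against 48.5% of genes.

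**Figure D1:**
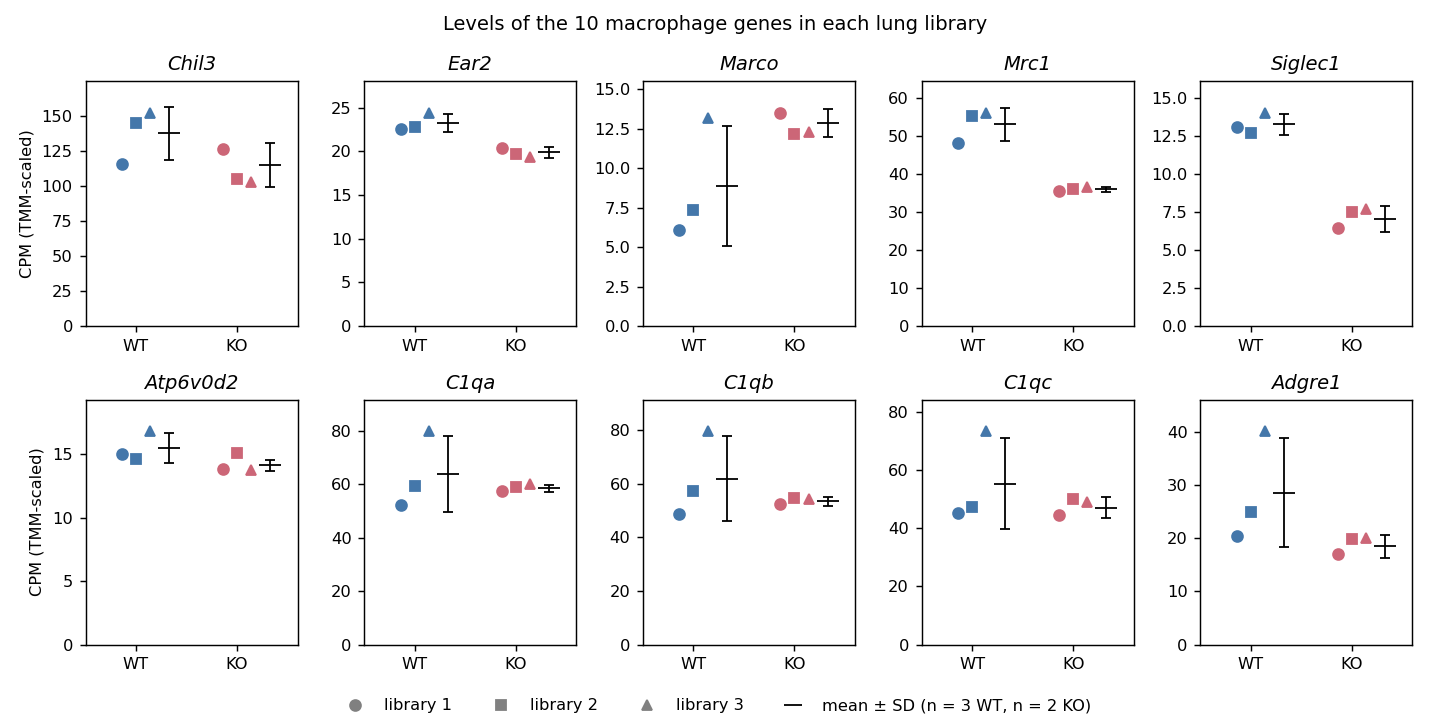
Level of each of the 10 macrophage genes in CPM (vertical axes, each starting at 0) in the 3 WT and 3 KO libraries, with the mean and SD beside the points (n = 3 for WT, and n = 2 for KO since KO2 and KO3 count as 1 sample). Siglec1 and Mrc1 do not overlap between genotypes, with KO points at 6.45 to 7.74 and 35.5 to 36.6 CPM, while WT3 stands above the other WT libraries for the C1q chains, Adgre1 and Marco.

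Siglec1 encodes sialoadhesin (CD169), a lectin that binds sialic acid on other cells and on particles, and it lies on the minus strand at chr2:131069220-131086765 (GRCm38). Siglec1 was at 13.1, 12.7 and 14.0 CPM in WT1 to WT3 and at 6.45, 7.54 and 7.74 CPM in KO1 to KO3. The groups did not overlap, and the lowest value was in KO1. Mean Siglec1 was 13.3 ± 0.677 CPM in WT (SD, n = 3) and 7.05 ± 0.841 CPM in KO (SD, n = 2), so that KO lungs held 53.1% of the WT level. Siglec1 fell by 0.91 on the log2 scale (SE 0.12, adjusted p = 0.0446 by edgeR).

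Mrc1 encodes the mannose receptor CD206, which takes up glycoproteins with mannose or fucose ends, and it lies on the plus strand at chr2:14229392-14332057. Mrc1 was at 48.1, 55.1 and 56.0 CPM in the WT libraries and at 35.5, 36.2 and 36.6 CPM in the KO libraries. The KO libraries lay within about 1 CPM of each other and all below WT1, the lowest WT library. Mean Mrc1 was 53.1 ± 4.35 CPM in WT and 35.9 ± 0.609 CPM in KO, or 67.7% of WT. Mrc1 fell by 0.56 on the log2 scale (SE 0.08, adjusted p = 0.0474 by edgeR).

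Both calls sat close to the threshold and were lost when WT1, WT2, WT3 or KO1 was left out. Without WT1, WT2 or WT3 no gene in the table was called (0, against 3642, 3346 and 4193 genes with an unadjusted p up to 0.05), and the adjusted p of both Siglec1 and Mrc1 was then 0.170, 0.189 and 0.123 by edgeR. Without KO1 the adjusted p was 0.0854 for Siglec1 and 0.103 for Mrc1, and 17 genes in all were called, with the KO arm then resting on the joint sample of KO2 and KO3, which is assumed to vary like the WT samples. With both libraries rich in squamous epithelium genes left out (WT3 and KO1), Siglec1 was lower by 0.76 on the log2 scale and Mrc1 by 0.51, in a fit with the same assumption.

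Siglec1 and Mrc1 have the longest exonic sequence among the 10 genes, 7143 and 6371 bases. Among the 4852 tested genes with at least 6000 exonic bases, the median log2 fold change was -0.12 against 0.02 for all tested genes. Of these long genes 109 were called lower (2.25%, against 0.906% of all tested genes). For 40.5% of them every KO library lay below every WT library, against 20.8% of all tested genes. With an offset for gene length and GC content no gene was called, and the log2 fold change was then -0.87 for Siglec1 (adjusted p = 0.0834) and -0.43 for Mrc1 (adjusted p = 0.0920) by edgeR. Lymphatic endothelium also makes Mrc1. The summed level of 6 lymphatic genes was 456 to 500 CPM in WT and 467 to 496 CPM in KO, but most of that sum came from Lyve1, which macrophages also make, Pdpn and Flt4. Lyve1 and Flt4 had log2 fold changes of 0.02 and -0.04, and Pdpn had 0.21 (adjusted p = 0.192), with its KO libraries all above its WT libraries. The other 3 of the 6, at lower levels, had their KO libraries all below their WT libraries, as 20.8% of all tested genes did. Mean Prox1, the factor that defines lymphatic endothelium, was 9.34 CPM in WT and 3.65 CPM in KO (log2 fold change -1.35, adjusted p = 0.0510 by edgeR, and 0.00820 with 6 separate libraries). Reln was at 14.5 and 9.62 CPM (adjusted p = 0.181), and Mmrn1 was at 26.1 and 19.98 CPM (adjusted p = 0.170). These lymphatic genes are named after their values were seen, and their part in the Mrc1 result was not tested.

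Promoter sequence is given for Mrc1, the gene that fell and has a RefSeq window, and for C1qb and C1qc, neighbouring genes whose levels moved together. Sequences come from RefSeq on GRCm38.p6, in which 6 of the 10 genes had a window. Siglec1, Atp6v0d2, C1qa and Adgre1 had no entry. The bases are read 5′ to 3′ on the strand of the gene and end next to the annotated gene or start site. Capitals mark GAGGAA, the core bound by the myeloid factor PU.1, and TGCTGA, the core of the element bound by MAF factors, on either strand (TTCCTC and TCAGCA on the other strand).
Mrc1 (chr2:14229164-14229391, plus strand, 228 bases): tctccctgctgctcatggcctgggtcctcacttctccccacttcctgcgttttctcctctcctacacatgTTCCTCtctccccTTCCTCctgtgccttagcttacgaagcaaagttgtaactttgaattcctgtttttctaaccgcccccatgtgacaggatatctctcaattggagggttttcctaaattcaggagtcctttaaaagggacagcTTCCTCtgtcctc
C1qb (chr4:136886201-136886450, minus strand, 250 bases): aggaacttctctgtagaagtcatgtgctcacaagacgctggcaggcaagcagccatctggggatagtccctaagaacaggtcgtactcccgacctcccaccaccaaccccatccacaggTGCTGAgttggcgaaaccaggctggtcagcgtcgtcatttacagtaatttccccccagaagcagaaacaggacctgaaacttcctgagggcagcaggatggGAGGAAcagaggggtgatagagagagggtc
C1qc (chr4:136893066-136893164, minus strand, 99 bases): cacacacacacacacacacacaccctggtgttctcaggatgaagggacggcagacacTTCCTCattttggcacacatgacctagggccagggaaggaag

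In the 250 bases before the RefSeq start, GAGGAA was found for Mrc1, Marco, C1qb and C1qc, 4 of 6 genes against 23.3% of 32851 RefSeq windows. Mrc1 held it 180, 167 and 35 bases before the start, each on the minus strand relative to the gene. The longer ETS form AGGAAGT, which may overlap it, was found for Mrc1, Chil3, C1qb and C1qc, again 4 of 6 against 7.69% of windows. TGCTGA was found for C1qb and Chil3, 2 of 6 against 16.1%. The interferon response form, GAAA followed by any 2 bases and GAAA, was found in 0 of 6, against 2.98% of windows. Both strands were searched, and a match describes letters in the window, not a bound site.

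Marco encodes a scavenger receptor that binds bacteria and inhaled particles, at chr1:120474538-120505024 on the minus strand. It was the only one of the 10 with a higher estimate in KO. It was at 6.06, 7.35 and 13.2 CPM in WT1 to WT3 and at 13.5, 12.2 and 12.3 CPM in KO1 to KO3. WT3 lay among the KO libraries, at 1.96 times the mean of WT1 and WT2, and the groups overlapped. Its estimate of 0.54 on the log2 scale (SE 0.35) was not past the threshold (adjusted p = 0.374 by edgeR). Without WT1 it was 0.33 (adjusted p = 0.610), without WT2 0.42 (adjusted p = 0.633), without WT3 0.94 (SE 0.15, adjusted p = 0.123), and without WT3 and KO1 it was 0.87. That last fit has the joint sample of KO2 and KO3 as its only KO sample, so only its estimates are given here and below.

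Adgre1 lies on the plus strand at chr17:57358691-57483527. It was at 20.5, 25.02 and 40.1 CPM in the WT libraries and at 17.0, 19.8 and 20.02 CPM in the KO libraries. The groups did not overlap, though WT1 and KO3 were 20.5 and 20.02 CPM, and WT3 was 1.76 times the mean of WT1 and WT2. The log2 fold change was -0.62 (SE 0.30, adjusted p = 0.263 by edgeR), -0.81 without WT1, -0.30 without WT3, and -0.19 without WT3 and KO1.

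**Figure D2:**
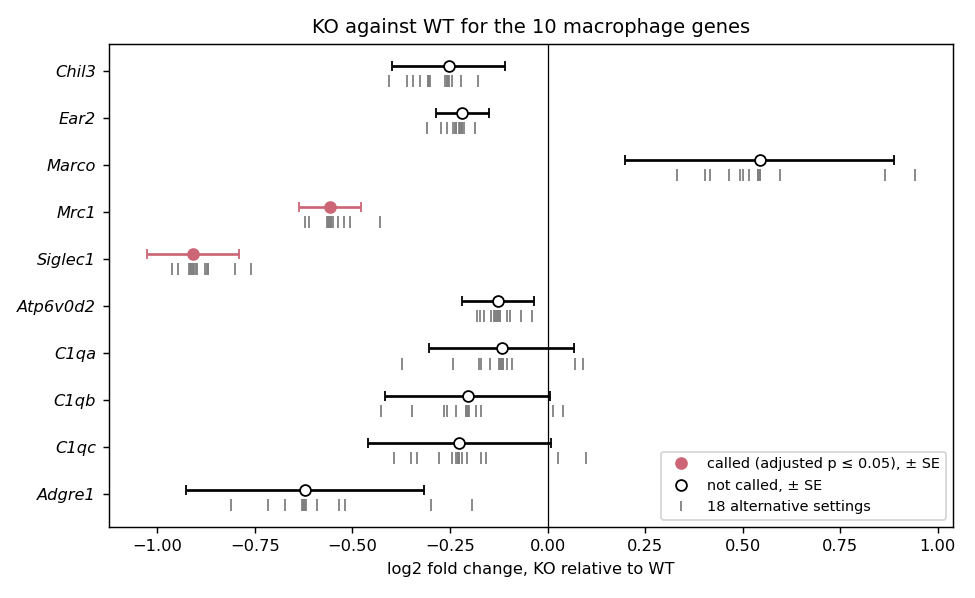
Log2 fold change of KO relative to WT for the 10 genes (horizontal axis), with the standard error as a bar, red filled points for genes called where the adjusted p was no more than 0.05, and small ticks for the same gene under each of 18 alternative settings. Siglec1 and Mrc1 are the red points at -0.91 and -0.56, and Marco alone lies to the right of 0 in the main fit.

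Chil3 (Ym1) encodes a chitinase-like protein released in large amounts by alveolar macrophages, at chr3:106147554-106167564 on the minus strand. Chil3 was at 116, 145 and 152 CPM in WT1 to WT3 and at 126, 105 and 103 CPM in KO1 to KO3. KO1 lay between WT1 and WT2, so the groups overlapped. Its log2 fold change was -0.25 (SE 0.15, adjusted p = 0.329 by edgeR), and over the fits without 1 library it went from -0.41 (without KO1) to -0.18 (without WT3), not called in any. Of 1490 windows of 50 bases in its longest transcript, 438 (29.4%) occur in other genes, mostly Chil4 and Gm6522, so reads from those windows may not be counted for it.

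Ear2 encodes a ribonuclease of the eosinophil cationic protein family that alveolar macrophages also make, at chr14:44102654-44103534 on the plus strand, overlapping the lincRNA Gm49101 on the other strand without sharing an exon. Ear2 was at 22.6, 22.7 and 24.4 CPM in WT1 to WT3 and at 20.3, 19.6 and 19.3 CPM in KO1 to KO3. The groups did not overlap, and the spread within each was small, 23.2 ± 0.992 CPM in WT and 19.9 ± 0.613 CPM in KO. The estimate of -0.22 on the log2 scale (SE 0.07) missed the threshold (adjusted p = 0.123 by edgeR) and was past it with 6 separate libraries (adjusted p = 0.0332) and with DESeq2 (adjusted p = 0.0223). Of 670 windows of its transcript, 278 (41.5%) occur in other genes, among them Ear10 and Ear1, and mean Ear1 was 5.99 CPM in WT and 5.98 CPM in KO. Eosinophils are another source of Ear genes. The sum of 5 eosinophil genes was 8.39 to 9.82 CPM in WT and 6.23 to 7.71 CPM in KO, with Epx, a defining eosinophil gene, at the floor of 3 counts or fewer, but most of that sum was Siglecf (7.21 CPM in WT and 5.67 CPM in KO), which alveolar macrophages also make. Mean Il5ra, the interleukin 5 receptor of eosinophils, named after its values were seen, was 1.29 CPM in WT and 0.460 CPM in KO, without overlap between the genotypes (log2 fold change -1.46, adjusted p = 0.0553 by edgeR, and 0.0122 with 6 separate libraries). Prg2, a granule protein of eosinophils, had a higher estimate in KO (0.396 against 0.554 CPM, adjusted p = 0.595), and Ccr3, their chemokine receptor, overlapped between genotypes (-0.31, adjusted p = 0.678). The part of eosinophils in the Ear2 values was not tested.

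Among 10 related chitinase-like and Ear genes, 6 were tested, and 0 were called by edgeR, with 2 with an unadjusted p up to 0.05 and 1, Chil1, called with 6 separate libraries. Over all tested genes those shares were 2.28%, 27.3% and 18.9%. Chil1 encodes another chitinase-like protein, made also by epithelium. Chil1 went from 721 ± 41.1 CPM in WT to 965 ± 66.3 CPM in KO (log2 fold change 0.43, adjusted p = 0.0563), and its estimate without WT3 and KO1 was 0.39. For Chia1, the acidic chitinase of the airways, the log2 estimate was 0.24 (adjusted p = 0.170).

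Atp6v0d2 encodes a subunit of the V-ATPase, the pump that acidifies lysosomes, and in lung it is largely a product of alveolar macrophages. It lies on the minus strand at chr4:19876841-19922605. Atp6v0d2 was at 15.1, 14.6 and 16.8 CPM in WT and at 13.8, 15.1 and 13.8 CPM in KO. The groups overlapped, and the log2 fold change was -0.13 (SE 0.09, adjusted p = 0.439 by edgeR), -0.068 without WT3 and -0.041 without WT3 and KO1. Among 22 other V-ATPase genes, most of them made by many cell types, 17 had a higher and 5 a lower estimate in KO, against 47.8% lower among all tested genes. Of the 22, 3 rose (1.38% of all genes did) and 0 fell, and with 6 separate libraries 6 were called higher (9.81% of genes) and 1, Atp6v0a2, lower (9.07%). The median over the list was 0.14 on the log2 scale, against 0.02 for all tested genes. Atp6v1g1 rose from 32.5 ± 0.861 to 44.0 ± 0.362 CPM, Atp6v1f rose from 38.9 ± 1.03 to 52.4 ± 0.242 CPM, and Atp6v0b rose from 109 ± 2.55 to 140 ± 2.95 CPM, each with an adjusted p of 0.0446 by edgeR. Under the offset for gene length and GC content, their log2 fold changes of 0.44, 0.44 and 0.36 became 0.30, 0.24 and 0.20 and no call was left. Atp6ap1 and Atp6v1b2, the members of this list with the highest levels, had log2 fold changes of 0.14 and 0.19 (adjusted p = 0.245 and 0.161).

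The C1q chains lie side by side on chromosome 4, in the order C1qb (chr4:136880129-136886187), C1qc (chr4:136889804-136893065) and C1qa (chr4:136895917-136898803), all on the minus strand. C1qb and C1qc are 3616 bases apart, C1qc and C1qa 2851 bases, and the 3 genes span 18675 bases. None of the chains was called.

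C1qa was at 52.2, 59.3 and 79.6 CPM in WT1 to WT3 and at 57.6, 58.9 and 59.9 CPM in KO1 to KO3 (log2 fold change -0.12, SE 0.19, adjusted p = 0.729 by edgeR). C1qb was at 48.8, 57.3 and 79.5 CPM in WT and at 52.4, 54.7 and 54.5 CPM in KO (-0.21, SE 0.21, adjusted p = 0.587). C1qc was at 45.2, 47.4 and 73.4 CPM in WT and at 44.6, 50.1 and 49.2 CPM in KO (-0.23, SE 0.23, adjusted p = 0.588). For each chain WT3 was highest, at 1.43, 1.499 and 1.58 times the mean of WT1 and WT2 for C1qa, C1qb and C1qc, and the remaining 5 libraries overlapped. Without WT3 the log2 fold changes were 0.071, 0.013 and 0.027, without WT1 they were -0.24, -0.35 and -0.35, and with the offset for gene length and GC content they were -0.37, -0.43 and -0.39, none of them called.

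The balance among the chains was steady. Per length of exonic sequence, C1qa made up 40.8% to 43.7% of the 3 chains in each library, C1qb 37.6% to 39.2% and C1qc 18.2% to 20.3%. The summed level of the chains was 146, 164 and 233 CPM in WT1 to WT3 and 155, 164 and 164 CPM in KO1 to KO3. The rest of the classical pathway had 7 of 8 genes tested, of which 3 had higher and 4 had lower estimates in KO, and 0 were called by edgeR (0 with an unadjusted p up to 0.05, and 0 with 6 separate libraries). Over all tested genes 2.28% were called, 27.3% had such an unadjusted p and 18.9% were called with 6 separate libraries. C3, the central complement protein, was at 1251 CPM in WT and 1386 CPM in KO (log2 fold change 0.16, adjusted p = 0.676). Without KO1 the C3 estimate was 0.43, and without WT3 and KO1 it was 0.45. Serping1, the C1 inhibitor, was at 599 and 556 CPM (-0.10, adjusted p = 0.592), and its estimate without KO1 was -0.29.

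**Figure D3:**
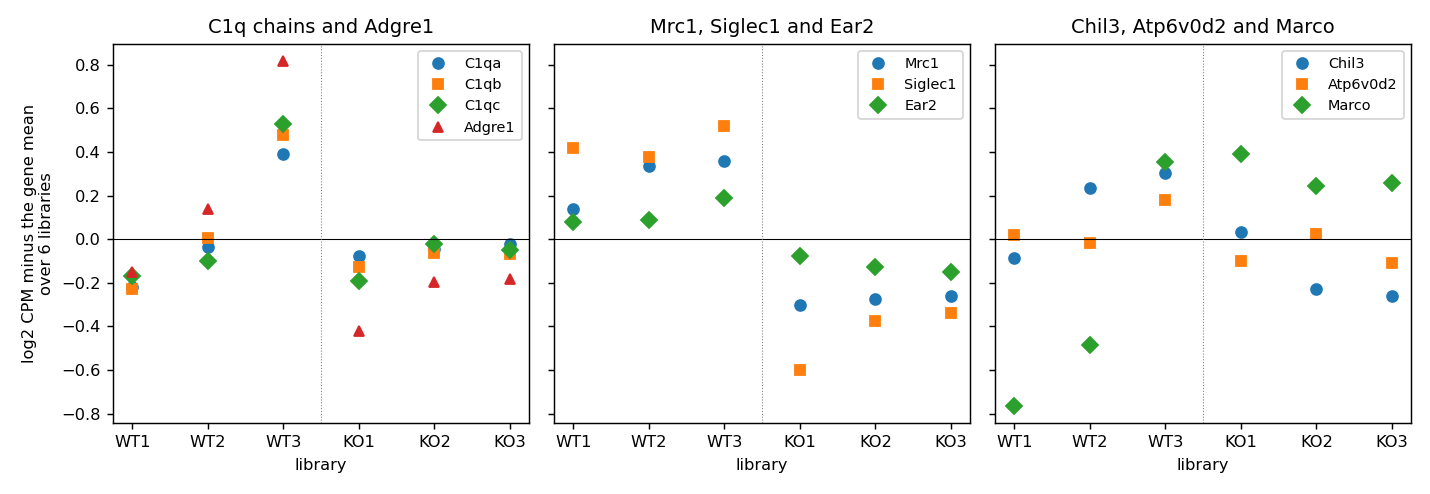
Log2 CPM of each gene minus its mean over the 6 libraries (vertical axis), by library (horizontal axis), with the C1q chains and Adgre1 at the left, Mrc1, Siglec1 and Ear2 in the middle, and Chil3, Atp6v0d2 and Marco at the right. The C1q chains move as a group and peak in WT3, the middle genes split by genotype at the dotted line, and Marco is low only in WT1 and WT2.

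Levels were compared between genes per kilobase of exonic sequence. In WT the order of mean CPM per kb was Chil3 (84.2), C1qa (61.3), C1qb (56.9), Ear2 (32.3), C1qc (28.7), Adgre1 (8.81), Mrc1 (8.33), Atp6v0d2 (5.70), Marco (4.604) and Siglec1 (1.86). Within each of the 6 libraries Chil3 was above C1qa and C1qa above C1qb, although the ranges over WT libraries overlapped (71.0 to 93.1 CPM per kb for Chil3 and 50.2 to 76.6 for C1qa). The order of Ear2 and C1qc, of Adgre1 and Mrc1, and of Atp6v0d2 and Marco differed between WT3 and the other WT libraries, so that these neighbours in WT did not differ beyond their spread. C1qb and Ear2, C1qc and Adgre1, Mrc1 and Atp6v0d2, and Marco and Siglec1 did not overlap in WT. In KO the means were 70.4 for Chil3, 56.2 for C1qa, 49.1 for C1qb, 27.7 for Ear2, 24.4 for C1qc, 6.68 for Marco, 5.70 for Adgre1, 5.64 for Mrc1, 5.20 for Atp6v0d2 and 0.987 for Siglec1. Marco stood ninth in WT and sixth in KO, and Adgre1, Mrc1 and Atp6v0d2 each stood 1 place lower in KO. In KO1 Adgre1 was below Mrc1 (5.24 and 5.57 CPM per kb), while in KO2 and KO3 it was above, so these neighbours did not differ beyond their spread in KO.

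The genes whose pattern over the 6 libraries was most like the mean profile of the C1q chains, by root mean square difference of mean-centred log2 CPM among 15064 genes, were Ltc4s (0.0245), Dnase1l3 (0.0684), Fpr1 (0.0738), Rasgef1b (0.0743) and Fcgr3 (0.0828), against a median of 0.261 for all genes. Ltc4s, which makes leukotriene C4, was at 7.84, 8.59 and 12.3 CPM in WT and 8.40, 8.995 and 8.91 CPM in KO. For the mean profile of the 6 alveolar genes they were Cttnbp2nl (0.0241), Pdgfrl (0.0368), Fcgr3 (0.0452), Knl1 (0.0488) and Frrs1 (0.0494), against a median of 0.215.

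Other macrophage genes did not move one way. For the lists that follow, the shares over all tested genes were 2.28% called, 27.3% with an unadjusted p up to 0.05, 47.8% with a lower estimate and 18.9% called with 6 separate libraries. Of 20 further alveolar macrophage genes, 9 had higher and 11 lower estimates in KO, with a median log2 fold change of -0.00. By edgeR 1 was called, 7 had an unadjusted p up to 0.05, and with 6 separate libraries 3 were higher (Krt79, Ctsk and Cd9) and 1 lower. The gene called was Lpl, lipoprotein lipase, which alveolar macrophages share with adipocytes and muscle. Lpl was at 367, 364 and 366 CPM in WT and at 178, 175 and 177 CPM in KO, and fell by 1.04 on the log2 scale (SE 0.05, adjusted p = 0.0251 by edgeR, and 0.0673 with the offset for length and GC). Adipocyte and cardiomyocyte genes moved the same way, as given above, and their part in this value was not tested. Cd9, a tetraspanin, was higher by estimate (0.29, adjusted p = 0.0569), and Tgm2, a transglutaminase of many cell types, was at 629 and 605 CPM (-0.05, adjusted p = 0.759).

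Of 18 interstitial macrophage genes, 9 were higher and 9 lower by estimate, and 0 were called by edgeR, with 9 with an unadjusted p up to 0.05. With 6 separate libraries 7 were called. The 4 higher were Cbr2, Gas6, Tmem176a and Tmem176b (log2 fold changes of 0.25 to 0.66 in the main fit). The 3 lower were F13a1, Cd163 and Stab1 (-0.89 to -0.23). For Apoe, a lipid carrier, the log2 estimate was -0.09 (adjusted p = 0.508 by edgeR). It was -0.06 without WT3 (adjusted p = 0.733) and -0.30 with the offset for length and GC (adjusted p = 0.0838). Cbr2, a carbonyl reductase that club cells also make, had 0.66 (adjusted p = 0.0680), and 0.84 without WT3 and KO1. Cd163, the haemoglobin scavenger receptor, was chosen after its values were seen, and went from 13.3 ± 0.661 CPM in WT to 7.18 ± 1.44 CPM in KO (-0.89, SE 0.15, adjusted p = 0.0514 by edgeR, and 0.0102 with 6 separate libraries).

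Of 15 pan-macrophage genes, 4 were higher and 11 lower by estimate, and Cd63, a lysosomal tetraspanin of many cell types, was the only gene called, with 5 at an unadjusted p up to 0.05 and, with 6 separate libraries, 2 higher and 3 lower. Cd63 rose from 54.9 ± 1.28 to 75.9 ± 1.81 CPM (log2 fold change 0.47, SE 0.05, adjusted p = 0.0446 by edgeR, and 0.0840 with the offset for length and GC). Lyz2, lysozyme of macrophages and type 2 alveolar cells, had 0.28 (adjusted p = 0.119), and Laptm5, a lysosomal protein of leukocytes, had -0.03 (adjusted p = 0.912). Csf1r, the receptor for the growth factor CSF1, was at 203 ± 11.3 CPM in WT and 152 ± 8.70 CPM in KO (-0.41, SE 0.07, adjusted p = 0.0546), and passed with 6 separate libraries (adjusted p = 0.0113).

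Of 18 genes for the upkeep of macrophages (growth factors, their receptors and transcription factors), 8 were higher and 10 lower by estimate, and 0 were called by edgeR, with 11 with an unadjusted p up to 0.05. With 6 separate libraries 10 were called. The 5 higher were Il34, Csf2 (GM-CSF), Bhlhe40, Bhlhe41 and Cebpb. The 5 lower were Csf1r, Csf2rb, Csf2rb2, Tgfbr1 and Tgfbr2. Tgfbr2, a receptor for TGF-beta found on many cells, was at 402 and 331 CPM (-0.27, adjusted p = 0.0623). Of 18 other scavenger and lectin receptors, 2 were higher and 16 lower by estimate, with a median log2 fold change of -0.23. By edgeR 0 of these were called, with 9 with an unadjusted p up to 0.05 and 6 lower with 6 separate libraries. The list shares Stab1, Cd163, Mertk, Clec7a and Siglecf with the macrophage lists above, where they were counted too. Cd36, a fatty acid receptor also of endothelium and adipocytes, had -0.30 (adjusted p = 0.144), and -0.47 without WT3 and KO1. Lrp1, a large endocytic receptor, had -0.33 (adjusted p = 0.119).

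**Figure D4:**
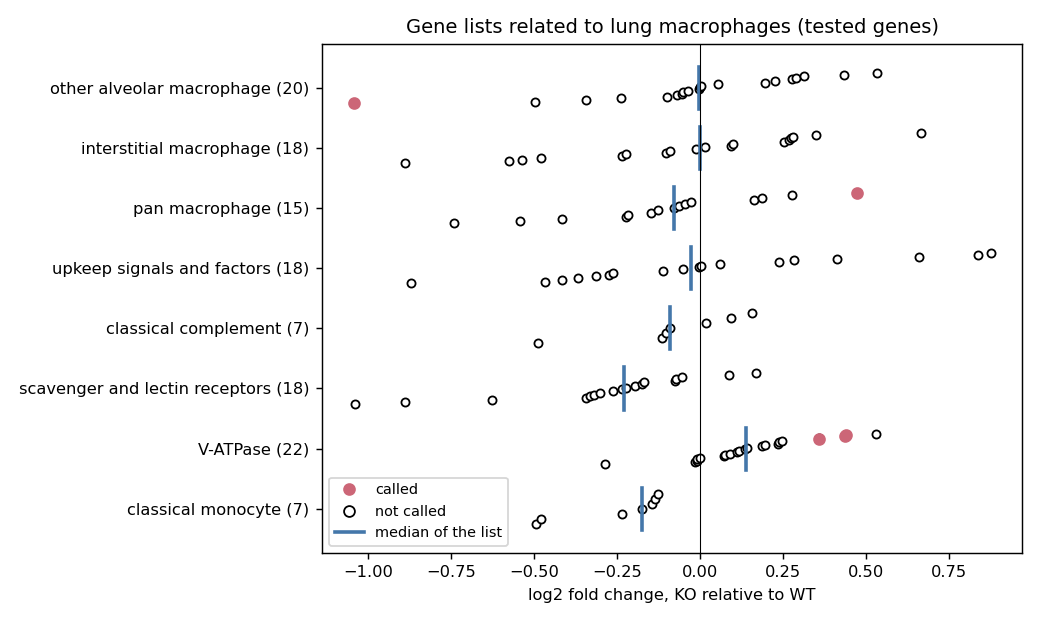
Log2 fold change of KO relative to WT (horizontal axis) for each tested gene of 8 lists related to lung macrophages, with called genes in red, a blue line at the median of each list, and the number of tested genes in brackets. Called genes are Lpl at the far left of the alveolar list, Cd63, and 3 V-ATPase genes, of which Atp6v1g1 and Atp6v1f overlap at 0.44.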

How the data were processed

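Whole-lung RNA at ZT7 was sequenced in 6 libraries. The authors deposited raw counts of reads per gene. Per the labels and methods, reads were trimmed (Trimmomatic 0.36), aligned to GRCm38 (mm10) with STAR 2.5.3a, handled with Picard 2.9.0 and counted with HTSeq 0.6.0 in GenPipes. The annotation release and the strand setting are not given in the sources used here, so counts of overlapping genes are uncertain. All 6 count columns were used.

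Here, counts were filtered with filterByExpr, scaled by TMM and tested with edgeR 4.0.16 (glmQLFit, glmQLFTest) in R 4.3.3, with Benjamini-Hochberg adjustment over all tested genes. KO2 and KO3 were summed, as described with the libraries. Standard errors follow from each estimate and its F value. Coordinates and exon lengths come from GENCODE M21 (GRCm38), which holds 97.5% of the identifiers. The floor of 3 counts covers counting error only, while the SDs and standard errors include variation between samples. In data simulated for 3 WT and 2 KO samples over 18660 genes, the test recovered 59.7% of 1.5-fold, 88.1% of 2-fold and 95.5% of 4-fold changes, with 9 false calls. The simulation gave all genes the same variation between independent samples, unlike these libraries, so its rates need not hold here.

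All 10 genes are named in full. From each further macrophage list, and the classical monocyte list, the 2 genes with the highest mean CPM and up to 4 called genes are named. The rule covered the lists of other cells too, but of those only called genes, and genes picked after their values were seen, are named. Named also are the 5 genes most like each profile. The members and lists were chosen with earlier results of these data known. The alternatives tried were other scalings and filters, edgeR's exact test, DESeq2 1.42.0, a replicate block, a squamous term, a length and GC offset (mgcv 1.9.3), and leaving out libraries. The lungs taken at ZT10 were not used here.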

Additional observations from a re-analysis of the deposited data

How the results depend on the processing

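With KO2 and KO3 kept separate 3402 genes were called, requiring 10 counts per library 937, with edgeR's exact test 209, with DESeq2 3919, with a squamous term 2234, with a length and GC offset 0 (4004 with an unadjusted p up to 0.05) and without WT3 and KO1 2256, against 426. Leaving out 1 library gave 0 to 418 genes. Among the 10 macrophage genes the exact test and the offset each called 0 (by unadjusted p, 2 and 4), and leaving out 1 library gave 0 to 2. For the exact test the adjusted p was 0.136 for Siglec1 and 0.105 for Mrc1. Both kept their sign in all 18 alternatives and were called in 12, with log2 fold changes of -0.96 to -0.76 and -0.62 to -0.43. Without WT3 and KO1 the log2 fold changes of C1qa, C1qb, C1qc and Laptm5 were 0.090, 0.039, 0.099 and 0.084. Leaving out 1 library gave -0.24 to 0.071 for C1qa, -0.35 to 0.013 for C1qb, -0.35 to 0.027 for C1qc and -0.11 to 0.098 for Laptm5, each above 0 only without WT3, and -0.15 to 0.0051 for Tgm2, above 0 only without WT1. The cause of these changes was not tested. Of the same-numbered pairs only WT2 and KO2 deviated together (correlations -0.543, 0.691 and -0.756 for numbers 1 to 3 over 18014 genes, with WT3 and KO1 at 0.795), so the numbers were not taken as a pairing. A replicate block over 6 separate libraries called 1157 genes, with Siglec1 and Mrc1 among them. Values of 511 single results kept their sign and stayed on their side of the threshold, 41 lost and 33 gained a call, and 9 changed sign. The lowest count among the 10 genes was 407, and the effect of depth was not tested.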

Other observations

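Other blood-derived cells were described by the summed level of their marker genes. Classical monocyte genes, the precursors of recruited macrophages, summed to 160 to 183 CPM in WT and 135 to 148 CPM in KO, so that every KO library lay below every WT library. All 7 had lower estimates in KO, against 47.8% of all tested genes. By edgeR 0 of the 7 were called (2 with an unadjusted p up to 0.05, against 27.3% of all genes, and 2 lower with 6 separate libraries, against 9.07%). Of these, Plac8 had a log2 estimate of -0.13 (adjusted p = 0.461) and Ccr2, the receptor that guides monocytes into tissue, had -0.24 (adjusted p = 0.249). Among 7 nonclassical monocyte genes, Cd300e, Treml4, Spn and Adgre4 had every KO library below every WT library, as 20.8% of all tested genes did, with log2 fold changes of -0.50, -0.42, -0.20 and -0.37. Nr4a1, Ace and Pglyrp1 had higher estimates (1.01, 0.11 and 0.18) and overlapped between genotypes, and 0 of 7 were called by edgeR (3 with an unadjusted p up to 0.05, against 27.3% of all genes, and 2 lower with 6 separate libraries, against 9.07%). The summed level of this list, 1252 to 1356 CPM in WT and 1490 to 1526 CPM in KO, was almost all Ace, which capillary endothelium also makes, and Nr4a1, an immediate early gene at 99.3 CPM in KO1 and 331 and 332 CPM in KO2 and KO3. Dendritic cell genes (83.4 to 97.1 CPM in WT and 78.9 to 91.3 CPM in KO) and neutrophil genes (98.4 to 149 CPM in WT and 97.0 to 124 CPM in KO) overlapped between genotypes in sum. Estimates in KO were lower for 5 of 6 and 6 of 7 tested genes, against 47.8% of all tested genes. By edgeR 0 were called in either list (0 and 1 with an unadjusted p up to 0.05, against 27.3%).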
